A study of Mus musculus with 18 samples.

Results

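The change of the spinal cord transcriptome between postnatal day 6 (P6) and postnatal day 10 (P10) was described in SMNdelta7 mice that model spinal muscular atrophy (SMA). Genes were included where the deposited table gave a single gene symbol, an OK status in both SMA groups and an FPKM of 5 or more in at least 1 of them. FPKM counts fragments for each kilobase of a transcript and scales them to library depth, so levels can be compared between genes. This gave 8838 of 58570 gene loci, or 15.1%, and 7821 of them were annotated as protein-coding. Nearest the threshold, Kyat1 (highest FPKM 4.995) and Cyp4x1 (4.998) were left out, and Cdc40 (5.002) and Uros (5.003) were included.

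Total RNA was taken from whole spinal cords and sequenced with a stranded kit after ribosomal RNA removal. SMA pups were homozygotes of the SMNdelta7 strain, and controls were heterozygotes of the same strain. In this line the mouse gene Smn1 is disrupted and human SMN transgenes are present. Each of the 6 groups, SMA and control at P2, P6 and P10, held 3 libraries, 18 in all, and the deposited tables give 1 combined value per group and gene. Each value below is therefore the authors' group value, and the only measure of its error is the 95% model interval deposited beside it. Values per library were not analysed here, so no standard deviation over animals can be given. Whole cords were extracted, so fewer cells of a type and less RNA per cell cannot be told apart.

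SMN is the core of a complex that loads the Sm protein ring onto the small nuclear RNAs of the spliceosome, and too little of it leads to the loss of motor neurons and muscle weakness. The interval between P6 and P10 is a time of fast maturation in the mouse cord. Oligodendrocytes, the glia that wrap axons, make myelin from a few abundant proteins, galactolipids and cholesterol, astrocytes take up their adult functions, and neurons lower the genes of axon outgrowth. In SMNdelta7 pups these days run from early to advanced disease.

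The targeted gene went against its label at P10. Smn1 (chromosome 13, 100124852 to 100137690, plus strand, build GRCm38) was at FPKM 0.0210 in SMA at P2, 0 in SMA at P6 and 2.82 in the group labelled SMA at P10. The controls were at 2.70, 4.46 and 3.54 at P2, P6 and P10. The P10 level of the group labelled SMA was thus 79.8% of the control level at the same age, and its interval of 0 to 6.08 overlapped that of the control, 0 to 8.12. In fragments the group labelled SMA held 20.2 at P10 against 0 at P6, at least 6.72-fold higher when P6 is set to a floor of 3 fragments per group. The value does not show whether it came from 1, 2 or 3 of the libraries. Every P10 value below rests on this group, and none could be recomputed without a library.

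The make-up of the groups by sex also differed. The Y-linked RNA helicase gene Ddx3y was at FPKM 14.9 in SMA at P6 and 6.63 in the group labelled SMA at P10, while control went from 4.92 to 13.1. All 4 Y-linked members had a lower SMA value at P10 and a higher control value at P10. A locus that joins Xist, the RNA that silences 1 X chromosome in female cells, with 2 predicted genes was at 33.6 and 69.0 in SMA and at 69.8 and 29.1 in control. The part of this difference in the results below was not tested. The cord was recognisable by its markers: in SMA the positional gene Hoxc8 was at 17.2 at P6 and 19.4 at P10, the oligodendrocyte lineage factor Olig2 at 15.1 and 20.3, the astrocyte filament gene Gfap at 172 and 205, and Chat, the enzyme that makes acetylcholine in motor neurons, at 2.12 and 2.32. Hoxb7 and Slc6a5, the other markers chosen for this check, had no locus with a single symbol. Group totals were 7385495 and 7386338 fragments in SMA at P6 and P10, and 6881671 to 7386338 over the 6 groups, on a scale set by the authors.

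**Figure D1:**
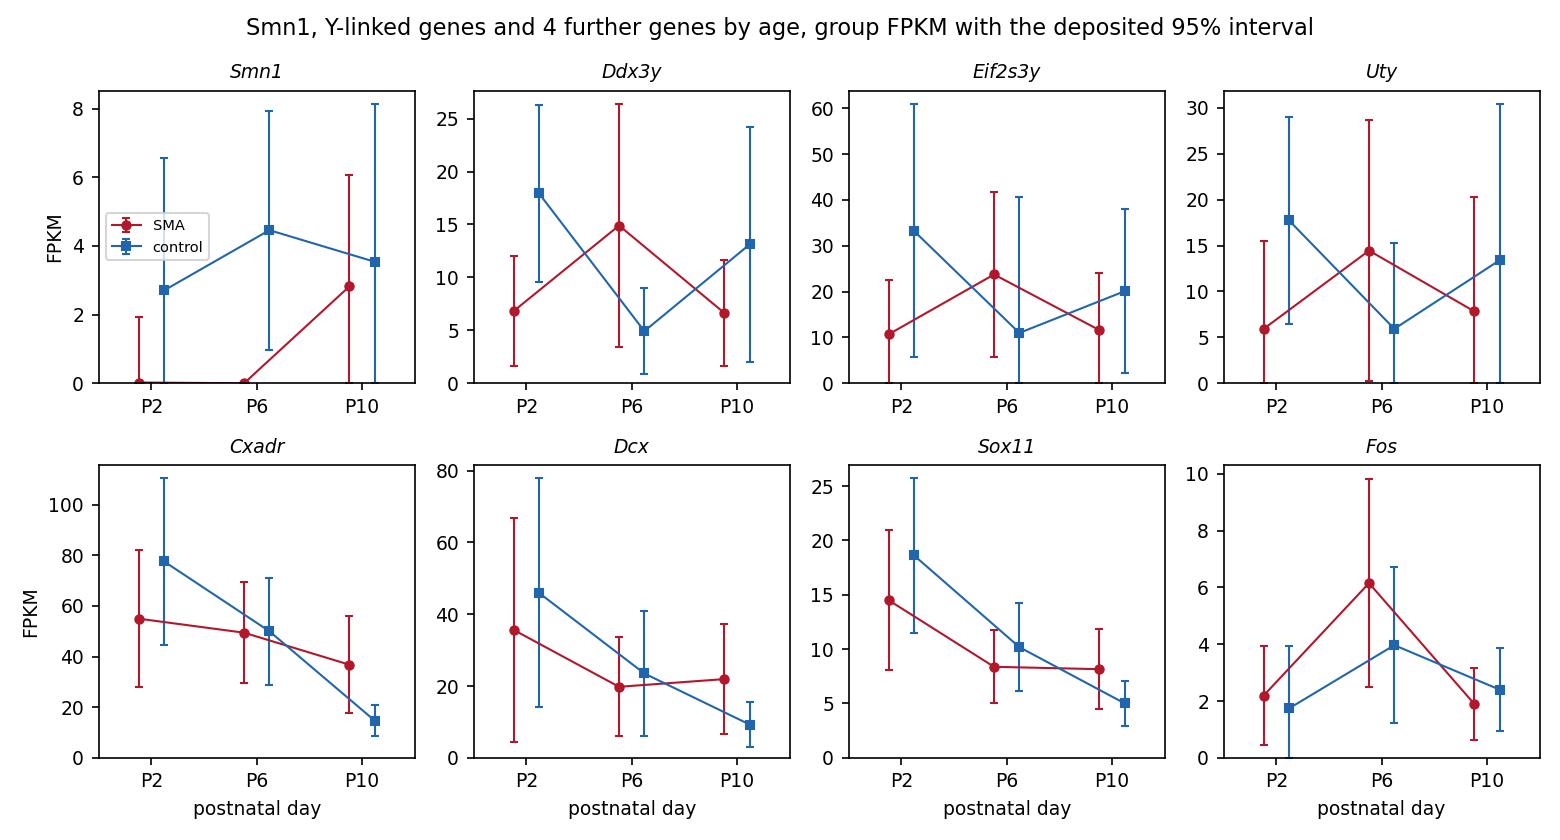
FPKM (vertical axis, linear, from 0) of 8 genes at P2, P6 and P10 in SMA (red circles) and control (blue squares); points are group values and bars the deposited 95% intervals. Smn1 is at 0.0210, 0 and 2.82 in the groups labelled SMA, Ddx3y, Eif2s3y and Uty run in opposite directions in SMA and control from P6 to P10, and Cxadr and Dcx are lower in control at P10 than in SMA.

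Across the SMA cord the levels at P6 and P10 lay close together. The log2 ratio of P10 over P6, computed as log2((P10 + 1) / (P6 + 1)), had a median of -0.04 over the 7821 protein-coding members, and its middle 90% lay between -0.36 and 0.29. In control the same genes had a median of 0.06 and a middle 90% between -0.41 and 0.59. Within 0.5 of no change were 96.9% of protein-coding members in SMA and 89.6% in control. SMA values were higher at P10 for 3171 and lower for 4650 genes. A log2 ratio of 1 or more, a doubling, was seen for 14 protein-coding members in SMA (0.179%) and 109 in control (1.39%), and one of -1 or less for 19 in SMA (0.243%) and 20 in control (0.256%).

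All 14 protein-coding members that doubled in SMA were among the 109 that doubled in control. Over those 109 genes the median log2 ratio was 1.21 in control and 0.49 in SMA, 101 had a higher SMA value at P10, and the SMA step was the smaller in size for 106. Of the 20 genes that halved in control, 17 were lower in SMA too, with a median of -0.47 against -1.07, and 2 reached -1 in SMA. The genes were taken here by their control values, so the control medians describe that choice. The smaller SMA steps, for 106 of the 109 genes and in the medians, follow in part from it too.

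**Figure D2:**
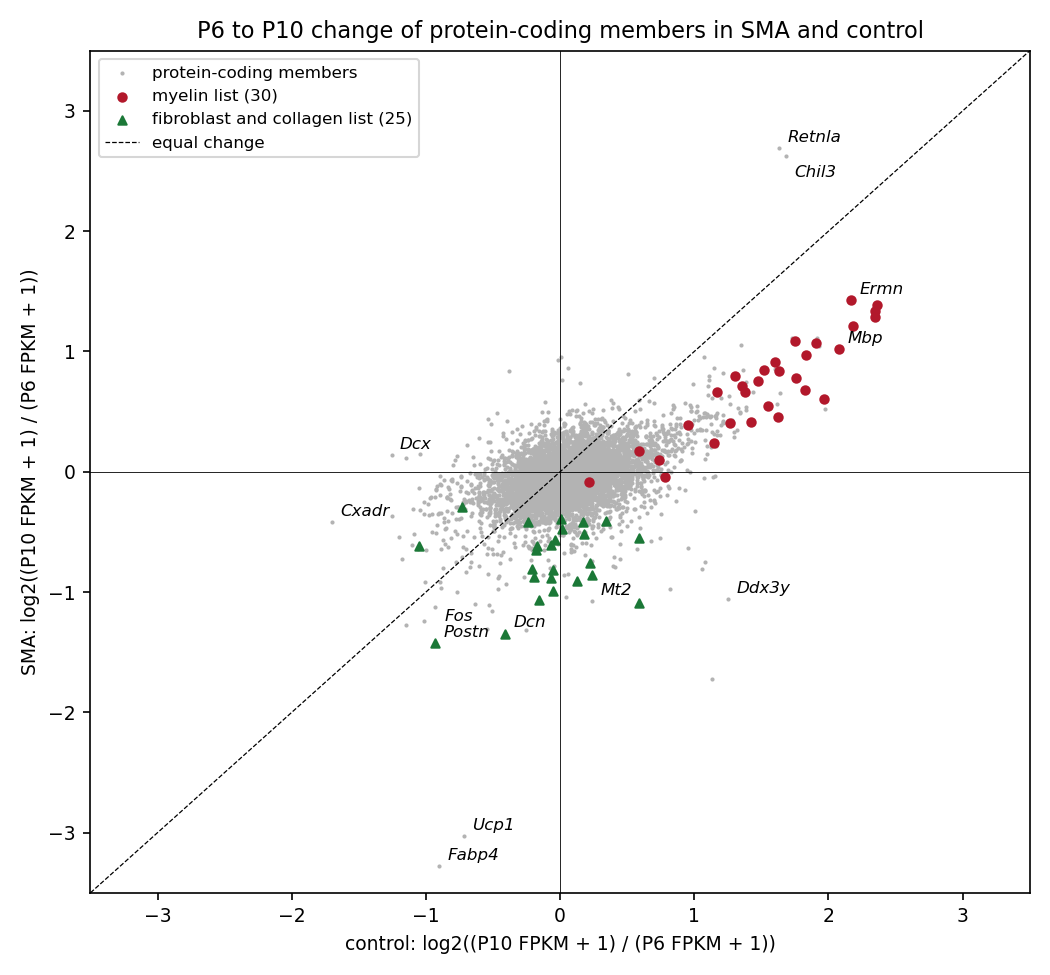
Each point is a protein-coding member, with log2((P10 FPKM + 1) / (P6 FPKM + 1)) in control on the horizontal axis and in SMA on the vertical axis; 7820 genes are shown and 1 lies beyond the axes. The 30 myelin genes (red) lie right of and below the line of equal change, and the 25 fibroblast and collagen genes (green triangles) all lie below 0 in SMA.

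Few genes passed the test of the SMA step. Each log ratio of FPKM was divided by the error that the authors' intervals give and read against a normal distribution (a z test, two-sided), with Benjamini-Hochberg adjustment over 20087 genes. With 1 value per group no exact test over libraries was possible, so a p measures the authors' model interval and not the spread between animals. It called 3 genes higher at P10 (0.0149%) and 5 lower (0.0249%), and 65 had an unadjusted p below 0.05. Of the 8 called, 6 were members: 5 predicted microRNA genes, 2 of them higher and 3 lower, and Ucp1, lower. The intervals were wide, with upper bounds that lay a median of 55.4% above the level at P6 and 55.6% at P10. In simulated data of the same size, with noise set to the full interval error, the test found 11% of 4-fold and 0% of 2-fold differences. The z values of the data varied less than under such noise (robust SD 0.280), so these shares may not hold for the data. For every other gene described here, values are given as levels with no claim of a difference.

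Of the 88 members of any gene type at 1 or more (0.996%), 60 were small RNAs and 14 protein-coding, and of the 62 at -1 or less (0.702%), 35 were small RNAs and 19 protein-coding. There were 178 small RNAs among the members. Their levels come from transcripts close to or below the fragment length, and they are counted but not described further.

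Ucp1, which uncouples respiration to give heat in brown fat, fell from FPKM 8.44 (interval 3.75 to 13.1) at P6 to 0.159 (0 to 0.410) at P10 in SMA. The intervals did not overlap. The log2 ratio was -5.73 ± 1.23 (standard error from the authors' intervals, adjusted p = 0.00826, z test with Benjamini-Hochberg adjustment). Of the 2 SMA groups compared, only P6 brought Ucp1 past FPKM 5 for inclusion and FPKM 1 for the test. A lower P10 value is favoured by that choice, so this p is not independent of it. The P10 level rests on 2.21 estimated fragments against 122 at P6, a ratio of 55.3 with an exact 95% interval of 16.5 to 509 that covers counting error only. In control Ucp1 was at 1.05 at P6 and 0.251 at P10, so among the P6 and P10 groups the high value is that of SMA at P6. At P2 SMA was at 7.70 and control at 3.66. The difference between the SMA and the control step was not past the threshold (log2 -3.66 ± 1.72, adjusted p = 1.00, z test on the authors' intervals). Ucp1 lies on chromosome 8 (83290352 to 83298452, plus strand).

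Fabp4, the fatty acid carrier of fat cells, showed the same order, with 10.6 (3.64 to 17.6) at P6 and 0.200 (0 to 0.633) at P10 in SMA. Control was at 1.47 and 0.324. Its intervals did not overlap either, but the test did not call it (adjusted p = 0.819, z test on the authors' intervals). Both genes belong to a list of 15 brown fat and adipocyte genes, of which 14 had a locus and 4 were members. All 4 members had lower SMA values at P10, with a median log2 ratio of -1.56 against -0.41 in control. That SMA median falls between the steps of Ucp1 (-3.03) and Ppargc1a (-0.09) and is near no gene of the list. Ucp1 and Fabp4 reached the inclusion level of FPKM 5 only in SMA at P6. Their lower SMA values at P10 thus follow in part from that choice. The other 2, the mitochondrial biogenesis coactivator Ppargc1a and the carnitine carrier Slc25a20, differed little, at 9.35 and 8.72 and at 15.4 and 15.0. Of the 14 genes found, 13 were lower at P10 in SMA and 10 in control. Among them Cox8b and Adipoq were at 4.65 and 0.511 in SMA at P6, on 6.95 and 5.97 estimated fragments, and at 0 at P10. In control Cox8b was at 0.327 and 0 and Adipoq at 0.125 and 0.0812. Cfd and Elovl3 were at 0 in SMA at P10 too, but with under 3 estimated fragments at P6, and Elovl3 was at 0 in control at both ages. Other fat genes of the list stayed above 0. Cidea was at 3.42 and 1.98 in SMA and at 2.43 and 2.02 in control. Lipe was higher at P10 in both, at 3.21 and 4.25 in SMA and at 2.24 and 3.82 in control. Summed FPKM of the list was 57.9 at P6 and 31.1 at P10 in SMA, and 31.6 and 29.3 in control. The part of fat outside the cord in these values was not tested.

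Genes of the coverings and of connective tissue had lower values throughout the list in SMA. All 25 members of a list of fibroblast, meningeal and collagen genes were lower at P10 in SMA, with a median log2 ratio of -0.65 against -0.05 in control, and 23 of the 25 SMA steps lay below the control step. None passed the z test, which called 0.0249% of all genes lower, and 3 of the 25 had an unadjusted p below 0.05. Of all 7821 protein-coding members, 8 higher and 14 lower had such a p. Decorin, a small proteoglycan that binds collagen fibres (Dcn), was at 22.2 (11.6 to 32.8) at P6 and 8.14 (3.49 to 12.8) at P10 in SMA, while control was at 21.8 and 16.2. Periostin (Postn), a matrix protein of fibroblasts, was at 9.62 and 2.96 in SMA and 9.20 and 4.36 in control. The collagen I chain gene Col1a2 was at 73.9 and 34.8 in SMA against 62.5 and 55.9 in control, and its partner Col1a1 at 37.2 and 17.0 against 24.4 and 37.1. Control and SMA were thus alike in direction for Dcn, Postn and Col1a2 and opposite for Col1a1. Ptgds, the prostaglandin D synthase made by the meninges, was at 120 and 60.0 in SMA and at 88.2 and 85.2 in control. The summed FPKM of the 29 genes found was 600 at P6 and 341 at P10 in SMA, and 517 and 488 in control.

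Markers of the nerve roots and ganglia ran the same way. Pmp22, a peripheral myelin protein, was at 76.6 (37.9 to 115) at P6 and 48.8 (25.4 to 72.2) at P10 in SMA but at 62.4 and 93.4 in control. The 5 Schwann cell members had a median of -0.55 in SMA and 0.75 in control, with 4 of 5 lower in SMA, and summed levels over 14 genes were 234 and 159 in SMA and 181 and 302 in control. All 9 members of the sensory ganglion list were lower in SMA at P10 (median -0.27, control -0.06). Among them Prph, a filament of neurons with peripheral axons, was at 25.1 and 15.4 in SMA and at 21.8 and 22.3 in control, and the touch channel gene Piezo2 at 6.42 and 3.06 against 4.68 and 3.15. The sodium channel genes Scn10a and Scn11a of pain-sensing neurons were below the level needed for inclusion, and their intervals did not overlap: Scn10a was at 1.22 and 0.0190 and Scn11a at 1.17 and 0.0967 in SMA.

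Red cell genes were mostly lower as well. The alpha globin gene Hba-a1 was at 358 (213 to 503) at P6 and 167 (90.8 to 243) at P10 in SMA, and at 443 and 285 in control. Beta globin Hbb-bs was at 430 and 281 in SMA and at 509 and 419 in control. Of 8 erythroid members 6 were lower, and the list summed to 951 and 597 in SMA and 1106 and 850 in control. Skeletal muscle had no member, and its 25 genes summed to 23 and 13.6 in SMA and to 22.7 and 14.6 in control. None of the muscle, Schwann cell, ganglion or fibroblast genes found was at 0 in either SMA group. The part of tissue around the cord in the other results was not tested.

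**Figure D3:**
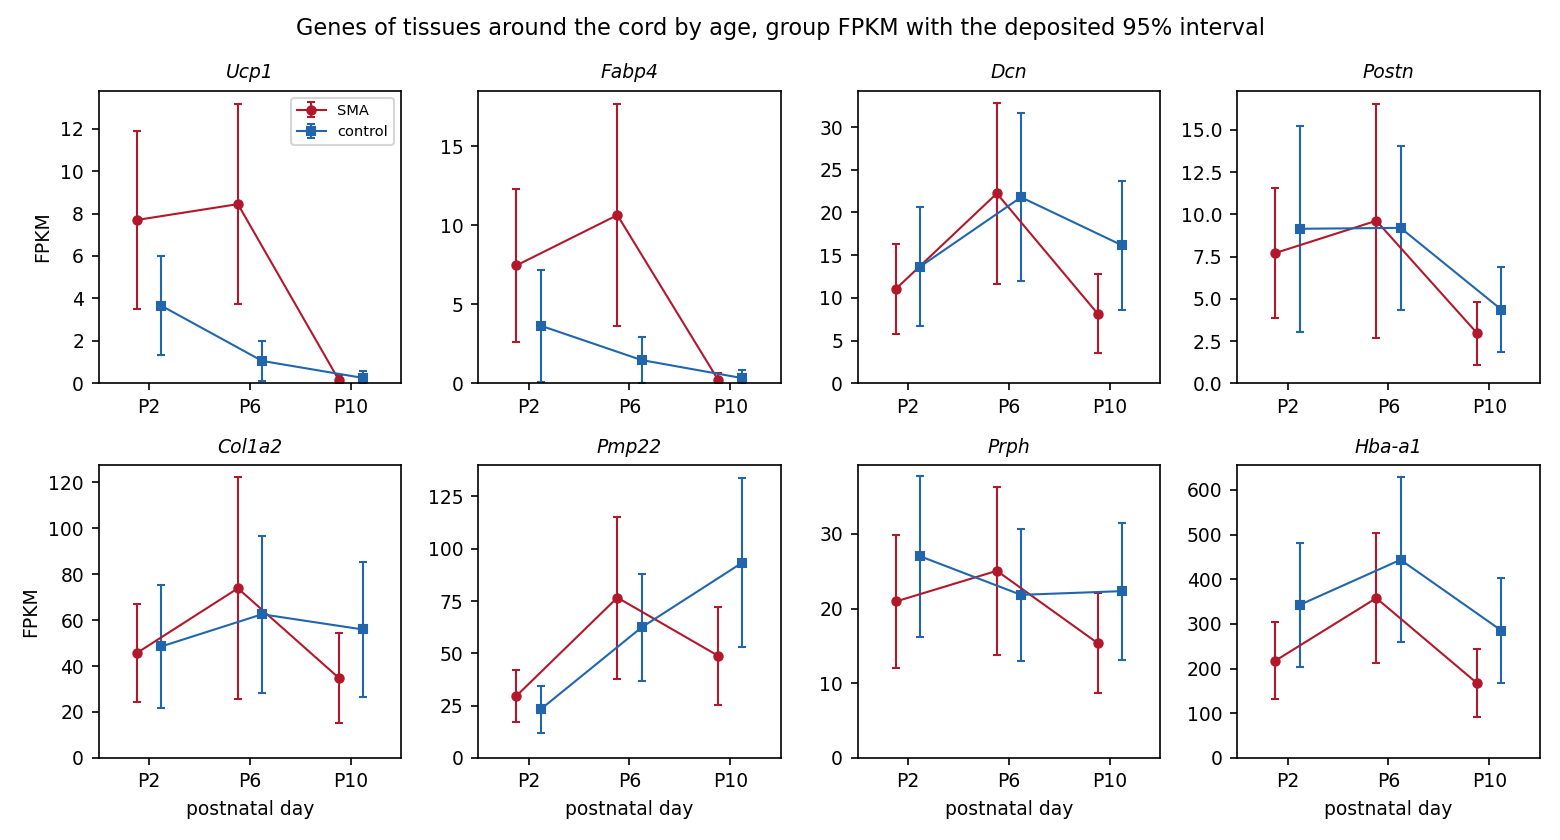
FPKM (vertical axis, linear, from 0) of genes of fat (Ucp1, Fabp4), connective tissue (Dcn, Postn, Col1a2), peripheral nerve (Pmp22, Prph) and red cells (Hba-a1) at P2, P6 and P10 in SMA (red circles) and control (blue squares), with deposited 95% intervals. In SMA every gene is lower at P10 than at P6, and Ucp1 and Fabp4 are near 0 at P10 in both genotypes.

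Myelin genes had the highest SMA step of any list. Of 30 members among 35 genes found, 28 were higher at P10, with a median log2 ratio of 0.74, and 8 were at 1 or more, against 0.179% of protein-coding members. None passed the test of the step (z test), and 6 of the 30 had an unadjusted p below 0.05. Of all 7821 protein-coding members, 8 higher and 14 lower had such a p. In control the median of the list was 1.58 and 25 of its members were at 1 or more, and the SMA step was the smaller for all 30. None of the 30 differences passed the test of the difference. Summed FPKM over the list was 2626 at P6 and 5116 at P10 in SMA, and 2341 and 9013 in control.

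Levels differed widely within the list. Mbp, the basic protein that holds the membrane layers together, was at 1130 (306 to 1955) at P6 and 2294 (0 to 5164) at P10 in SMA, and at 1012 and 4281 in control. Its 2 SMA levels lay within wide, overlapping intervals. Mog, on the outer face of the sheath, was at 18.3 and 47.8 in SMA and at 17.4 and 92.6 in control. Mag, which sits next to the axon, was at 99.6 and 172 in SMA and at 92.4 and 315 in control.

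Genes of sheath growth and of the cell's channels had narrower intervals. Ermn, a cytoskeletal protein of late oligodendrocytes, was at 4.22 (2.1 to 6.34) at P6 and 13 (5.91 to 20.1) at P10 in SMA, with 3.93 and 21.2 in control. Its log2 ratio of 1.63 ± 0.55 had an unadjusted p of 0.00290 and an adjusted p of 1.00 in the z test. Mal, a sorting protein of myelin vesicles, was at 35.4 (19.8 to 51.1) and 94.5 (44.4 to 145) in SMA and at 28.5 and 151 in control. Gsn, the actin-severing protein gelsolin, was at 36.5 (20.5 to 52.5) and 90.5 (40.0 to 141) in SMA and at 32.5 and 170 in control. The P6 and P10 intervals in SMA overlapped for each of these 3 genes, least for Ermn. Gjb1, a gap junction protein of oligodendrocytes, was at 6.02 and 13.8 in SMA and at 5.41 and 23.1 in control, and Tmem88b at 7.68 and 17.5 against 7.35 and 27.1.

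The lower part of the list held genes that are also used outside myelin. Cd9, a tetraspanin of many cells, was at 31.2 and 30.2 in SMA, and Kif5a, a kinesin of neurons, at 75.6 and 71.1; these were the 2 members with lower SMA values at P10. At P6 the SMA level was above control for 27 of 30 members, with a median of 111% of control. At P10 it was below control for all 30, with a median of 61.7%. The order of ages in SMA was not steady: at P2 the SMA level was above that at P6 for 27 of 30 members, and the median P2 level was 83.1% of the P10 level, against 12.3% in control. Summed myelin FPKM at P2 was 4224 in SMA and 536 in control. The SMA group at P2 therefore stood apart from its control in these genes.

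**Figure D4:**
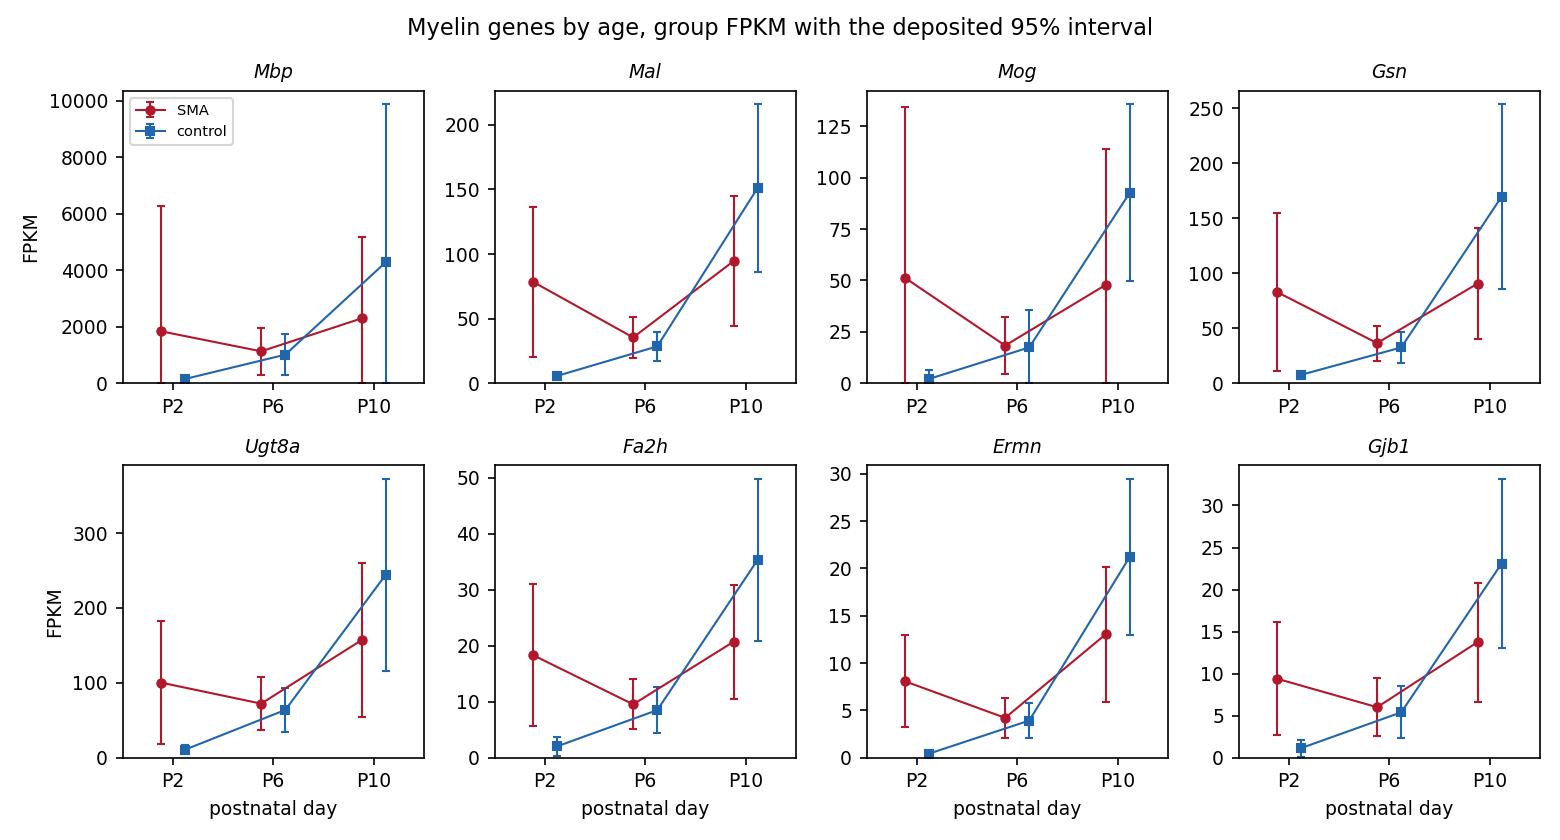
FPKM (vertical axis, linear, from 0) of 8 genes of myelin at P2, P6 and P10 in SMA (red circles) and control (blue squares), with deposited 95% intervals. Each gene is higher at P10 than at P6 in both genotypes, with the control value above the SMA value at P10, and SMA at P2 lies above SMA at P6.

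Lipid synthesis followed with smaller steps. Of 22 members for galactolipids and long-chain lipids 16 were higher in SMA (median 0.15, control 0.62). Ugt8a, which makes the main galactolipid of myelin, was at 72.3 and 157 in SMA and at 63.9 and 244 in control, and Fa2h, which hydroxylates its fatty acid, at 9.54 and 20.7 against 8.51 and 35.3. Both reached a log2 ratio of 1, the only 2 of the list to do so in SMA. Of 21 members for cholesterol synthesis 20 were higher in SMA, with a median of 0.15 against 0.52 in control, and 20 steps were below the control step. Hmgcs1, which makes the precursor of mevalonate, was at 150 and 214 in SMA and at 149 and 294 in control. Idi1, which isomerises the isoprene unit, was at 28.5 and 40.6 against 26.7 and 55.0. No member of either list passed the test.

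Since these genes had higher values together, the 250 bases before their RefSeq start sites (build GRCm38.p6) were searched on both strands for short motifs. TCACNCCAC, a form of the sterol regulatory element, was found before 1 of 18 starts of cholesterol members (5.56%) and before 1.05% of all 32851 starts. ACAAAG, the core that Sox factors bind, was found before 7 of 29 starts of myelin members (24.1%) and before 16.5% of all starts. The matched members numbered 15 of 21 and 20 of 30. The windows of Hmgcs1 (chr13:119690101-119690350, plus strand), Gjb1 (chrX:101376126-101376375, plus strand) and Mag (chr7:30914923-30915172, minus strand) show where these letters, in capitals, lie. A match is a run of letters and not a measured binding site. Each is written 5′ to 3′ on the gene's strand and ends just before the start:
Hmgcs1: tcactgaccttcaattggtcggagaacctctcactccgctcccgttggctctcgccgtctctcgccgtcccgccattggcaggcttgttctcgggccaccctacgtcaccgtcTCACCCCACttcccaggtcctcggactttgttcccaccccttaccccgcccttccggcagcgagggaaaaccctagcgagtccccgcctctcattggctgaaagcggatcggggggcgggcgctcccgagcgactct
Gjb1: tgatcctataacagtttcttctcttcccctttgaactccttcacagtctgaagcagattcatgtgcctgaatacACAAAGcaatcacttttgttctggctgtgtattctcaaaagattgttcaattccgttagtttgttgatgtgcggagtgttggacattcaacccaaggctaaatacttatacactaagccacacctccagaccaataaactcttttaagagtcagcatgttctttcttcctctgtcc
Mag: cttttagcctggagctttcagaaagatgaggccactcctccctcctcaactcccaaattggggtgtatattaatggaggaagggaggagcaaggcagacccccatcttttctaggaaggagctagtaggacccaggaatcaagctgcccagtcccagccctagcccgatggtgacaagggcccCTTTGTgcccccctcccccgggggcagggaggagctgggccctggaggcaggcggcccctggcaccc
The match lies 137 bases before the start in Hmgcs1, 176 in Gjb1 and 67 in Mag, where it is on the opposite strand. Gjb1 and Mag differ in their SMA step, at 1.07 and 0.78, and in control, at 1.91 and 1.76.

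Oligodendrocyte precursor genes stood lower in the order. Of 18 members 12 were higher in SMA at P10 (median 0.08, control 0.50). Enpp6, a marker of newly forming oligodendrocytes, was at 11.9 and 19.1 in SMA and at 10.9 and 27.6 in control, and Gpr17, of the same stage, at 32.8 and 48.2 against 36.2 and 72.4. At the contact between sheath and axon, 13 of 17 members for the node of Ranvier were higher (median 0.15, control 0.32). The juxtaparanodal potassium channel gene Kcna1 was at 6.81 and 9.46 in SMA and at 6.95 and 17.4 in control.

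Astrocyte genes had no common direction in SMA. Of 33 members 17 were higher and 16 lower, the median was 0.00, and it was 0.54 in control, where 30 were higher. The SMA step was below the control step for 31 of 33, and none of these differences passed the test. Kcnj10, the channel by which astrocytes take up potassium, was at 16.2 (9.94 to 22.4) and 24.3 (12.9 to 35.8) in SMA and at 14.7 and 47.1 in control. Gfap was at 172 and 205 against 157 and 318. The calcium-binding protein S100b was at 19.1 and 27.7 against 15.6 and 42.5. Apoe, the lipid carrier that astrocytes secrete, differed in direction, at 764 and 612 in SMA and 637 and 770 in control. The P10 values of Gfap, Kcnj10, S100b and Apoe in SMA were thus all below those of control.

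Genes of immature neurons and glia had the opposite position, with steps closer to 0 in SMA than in control. The 31 members for axon growth and microtubules had a median of -0.17 in SMA and -0.28 in control, 26 were lower in SMA, and 25 SMA steps lay above the control step. Dcx, which bundles microtubules in young neurons, was at 19.8 (6.05 to 33.5) and 21.9 (6.61 to 37.3) in SMA and at 23.5 (6.06 to 40.9) and 9.26 (3.07 to 15.4) in control. Its SMA log2 ratio was 0.14 by FPKM and -0.02 by expected counts. Cxadr, an adhesion protein of the developing nervous system, was at 49.4 and 36.8 in SMA and at 50.0 and 14.7 in control. Its difference between the steps was log2 1.34 ± 0.65, with an unadjusted p of 0.0400 and an adjusted p of 1.00 in the z test of the difference. The factor Sox11, which keeps neurons immature, was at 8.37 and 8.15 in SMA and at 10.2 and 5.01 in control. Shtn1, which links actin to adhesion in growth cones, was at 14.5 and 12 against 14.0 and 6.44. For these 4 genes SMA and control began at similar levels at P6 and the SMA level was the higher at P10, and Cxadr, Dcx, Sox11 and Shtn1 were named because their differences had the smallest p values. Basp1, a growth cone membrane protein, was lower in both, at 240 and 165 in SMA and 237 and 144 in control.

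Progenitor and radial glia genes had 11 of 15 members lower in SMA, with a median of -0.07 and of -0.32 in control. Fabp7, the fatty acid carrier of radial glia, was at 311 and 288 in SMA and at 353 and 191 in control, whereas the filament gene Vim was at 60.9 and 39.0 against 58.2 and 39.9. Spinal neuron identity factors were lower for 14 of 19 members (median -0.11, control -0.41). The factor gene Ebf3 was at 45.7 and 36.7 in SMA and at 38.9 and 25.8 in control.

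Genes of the cell cycle and of histones had negative medians in both genotypes. Of 46 replication-dependent histone members 44 were lower at P10 in SMA, with a median of -0.50, against -0.70 in control. Hist1h2af was at 17.8 and 6.78 in SMA and at 18.1 and 7.64 in control. The histone H4 gene Hist1h4d was at 184 and 126 against 208 and 133. These genes are near copies of each other, and how the authors' counting split reads between them was not stated. Of 10 cell cycle members 7 were lower in SMA, with a median of -0.18 and of -0.26 in control, among them Cdk1, the kinase that starts mitosis, at 5.15 and 3.93 against 4.79 and 3.33. The CCAAT box (letters CCAAT, either strand) was found in the same 250 bases before 7 of 10 starts of these members (70.0%) and before 33.8% of all starts. Hmgb2, a chromatin protein of dividing cells at FPKM 5.45 and 4.36 in SMA, holds 4 matches, in capitals, in chr8:57511593-57511842 on the plus strand:
Hmgb2: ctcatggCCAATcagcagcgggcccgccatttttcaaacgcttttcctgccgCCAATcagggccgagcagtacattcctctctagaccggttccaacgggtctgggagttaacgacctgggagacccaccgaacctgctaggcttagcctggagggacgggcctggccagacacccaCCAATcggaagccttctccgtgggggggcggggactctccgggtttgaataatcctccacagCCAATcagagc

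Ribosomal protein genes were lower for all 47 members in SMA, by a median of -0.26 that was close to -0.28 in control. Rplp1, of the ribosomal stalk, was at 531 and 423 in SMA and at 483 and 425 in control, and Rps29 at 354 and 244 against 357 and 284. Their pseudogenes could take part of the reads, and how this was handled was not stated. Genes of oxidative phosphorylation parted between the genotypes: 43 of 57 members were lower in SMA (median -0.10), 43 of 57 were higher in control (median 0.10), and 51 SMA steps lay below the control step. Atp5b, a catalytic subunit of ATP synthase, was at 317 and 292 in SMA and at 286 and 293 in control. The steps of single genes were small beside their intervals, and no member of either list passed the test.

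Motor neuron genes had 9 of 13 members lower in SMA (median -0.06, control 0.03). Chodl, a marker of fast motor neurons, was at 9.57 and 9.16 in SMA and at 14.2 and 13.6 in control, so the gap between genotypes was present at both ages. Slc5a7, which takes up choline, was at 9.09 and 10.8 in SMA against 11.9 and 13.4. Calca, a neuropeptide gene of motor and sensory neurons, was at 15.9 and 10.6 in SMA and at 12.1 and 16.1 in control. Synaptic vesicle genes had a median of -0.01 in SMA, which was 0.02 both after centring on the median of all genes and by expected counts, and of 0.23 in control. Snap25, of the vesicle fusion machinery, was at 134 and 146 in SMA and at 118 and 165 in control. Of 18 neuropeptide members 16 were lower in SMA (median -0.14, control -0.09), among them Npy at 20.8 and 15.4.

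SMN complex and Sm core genes had 9 of 12 members lower in SMA, with a median of -0.16 and of -0.04 in control. Over all protein-coding members 4650 of 7821 were lower. Of the SMN complex itself, Gemin5 was higher in SMA, at 4.06 and 5.13, and Strap was at 33.2 and 32.1. Gemin2, Ddx20, Gemin6 and Gemin8 were below the inclusion level, with SMA log2 ratios of 0.07, -0.04, 0.40 and -0.04. Snrpd1 and Snrpe, proteins of the Sm ring, were at 31.9 and 25.2 and at 50.7 and 46.5 in SMA, and at 25.4 and 25.4 and at 43.9 and 39.9 in control. Lsm11, which processes histone RNA ends, was at 23.6 and 18.2 against 22.2 and 15.8. Genes of the p53 pathway had a median of 0.03 in SMA and 0.26 in control. Its target Cdkn1a, which halts the cell cycle, was at 11 and 9.41 in SMA and at 5.70 and 3.69 in control, higher in SMA at both ages.

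Lists of stress and hormone genes held no called member. Of 18 glucocorticoid and fasting members 13 were lower in SMA (median -0.19, control 0.23), beside 4650 of 7821 protein-coding members. Mt2, a metallothionein that binds zinc, was at 128 (71.7 to 183) and 60.0 (30.8 to 89.1) in SMA and at 64.7 and 76.6 in control, and Mt1 at 128 and 77.0 against 78.1 and 107. The SMA level of both was above control at P6 and below it at P10. The median of the 7 metallothionein and zinc transport members was -0.10 by FPKM and 0.06 by expected counts. Txnip, a sensor of glucose and redox state, was at 31.4 and 12.7 in SMA and at 21.5 and 10.1 in control. Fos, the immediate early gene, was at 6.15 (2.49 to 9.82) and 1.89 (0.611 to 3.17) in SMA and at 3.97 and 2.40 in control. Of 23 autophagy members 19 were lower in SMA (median -0.14, control 0.20), with Sqstm1, a cargo receptor, at 82.6 and 69.8 against 65.4 and 72.1.

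Immune genes showed 2 isolated high values. Retnla and Chil3, both made by alternatively activated macrophages, were at FPKM 0.223 (0 to 0.708) and 0.0327 (0 to 1.55) at P6 and at 6.89 (2.21 to 11.6) and 5.37 (0 to 11.2) at P10 in SMA. They headed the members by log2 ratio, at 2.69 and 2.62. Both reached the inclusion level of FPKM 5 only in SMA at P10, so their place in that order follows in part from the choice of members. Control held 0.137 and 0.406 at P6 and 2.52 and 3.51 at P10, the same order at a lower P10 level. The P6 levels rest on 0.796 and 0.356 estimated fragments, under the floor of 3, so no fold is given. Neither passed the test. Of 10 microglia members 6 were higher (median 0.04, control 0.19), with the surface receptor P2ry12 at 14.0 and 15.7. Of 5 complement members 4 were lower, with C1qa at 13.5 and 9.60 in SMA and at 8.08 and 8.54 in control.

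Over the 57 lists with 3 or more members, the SMA median was below 0 for 43 and above 0 for 14, beside a median of -0.03 over all 8838 members. The lists share genes and are not independent of each other. The fat, sex-linked, fibroblast and Schwann cell lists had the most negative SMA medians, and the myelin list the highest. The place of the fat list rests on Ucp1 and Fabp4, which were included only through SMA at P6.

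**Figure D5:**
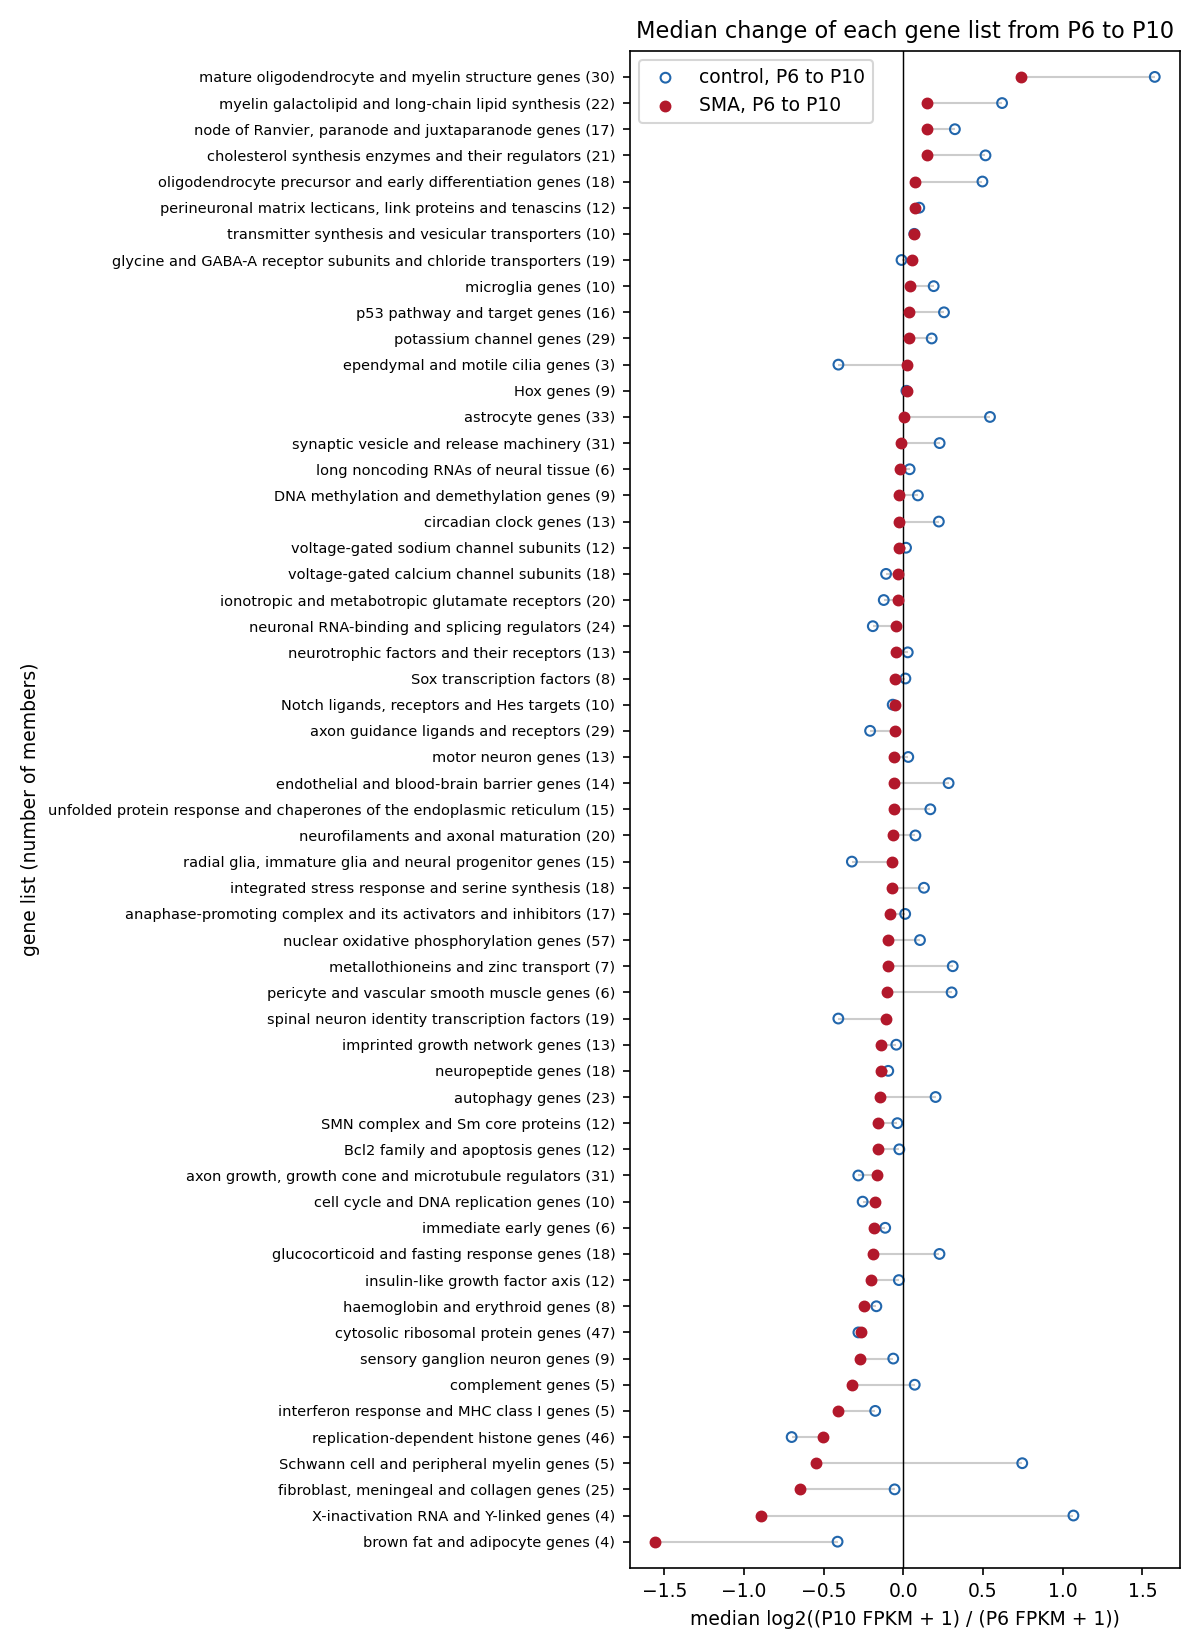
Median log2((P10 FPKM + 1) / (P6 FPKM + 1)) of each of 57 gene lists, in SMA (filled red) and control (open blue), ordered by the SMA median, with the number of members in brackets. The myelin list is highest at 0.74 in SMA and 1.58 in control, and the brown fat list lowest at -1.56 and -0.41.

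The step from P6 to P10 was also compared between SMA and control gene by gene, in a z test that adds the errors of all 4 groups. It called 4 of 21038 genes (0.019%), and 27 had an unadjusted p below 0.05. Members among them were 2: a predicted microRNA gene and Dancr, a long noncoding RNA that hosts a small nucleolar RNA (chromosome 5, 74093060 to 74095406, plus strand). Dancr was at 50.4 (47.2 to 53.7) and 45.7 (37.7 to 53.7) in SMA and at 97.2 (87.6 to 107) and 160 (149 to 171) in control, a difference of log2 -0.86 ± 0.16 (adjusted p = 0.00079, z test on the authors' intervals with Benjamini-Hochberg adjustment). By the authors' expected counts the difference was -0.18 ± 0.98 (adjusted p = 1.00), with 27.4 and 28.7 fragments in SMA, so the call was lost. Besides Dancr, the members with the smallest p for a lower step in SMA were Ddx3y, given above, Ucp1, Sdc4 and Gpd1. Sdc4, a cell surface proteoglycan, was at 16.6 and 13 in SMA and at 9.43 and 19.9 in control, and Gpd1, a glycerol phosphate dehydrogenase, at 5.41 and 8.18 against 3.42 and 16.4; neither passed the test.

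Genes at 0 in either SMA group, such as Cox8b, were outside the test of the SMA step and the counts that follow. Among the 20087 tested, the SMA intervals at P6 and P10 did not overlap for 10 genes higher (0.0498%) and 17 lower (0.0846%) at P10. Protein-coding members among them were Retnla, Fabp4 and Ucp1, each included only through the SMA group where its value is high. Non-members included Opalin, a late oligodendrocyte membrane protein, at 0.381 and 2.48, and Pirt, a channel regulator of sensory neurons, at 2.23 and 0.418.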

How the data were processed

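Per the labels' protocols, RNA from whole cords was made into libraries with the TruSeq Stranded Total RNA kit with RiboZero. Per the submitters' processing notes, FastQC, Bowtie2 2.2.4, TopHat2 2.1.1, Picard, Cufflinks 2.2.1 and Cuffdiff were used on GRCm38; the annotation, strand setting and normalization are not given in the sources used here. The authors deposited FPKM per gene locus and group, each with its model interval. A second deposited table holds expected counts with their variance, used as an alternative.

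Computed here, with Python 3.11.15, pandas 2.3.3 and scipy 1.17.1, were log2((P10 + 1) / (P6 + 1)) over members, and a z test (two-sided) of the log FPKM ratio. The error was the distance from FPKM to the upper bound divided by 1.96, read as a 95% interval of the group value. A gene was tested with FPKM 1 or more in any compared group, above 0 in each and status OK, and called at a Benjamini-Hochberg adjusted p under 0.05. The z values had a robust SD of 0.280, so the test is strict. It was tested on simulated data. Gene types, identifiers and coordinates came from GENCODE M21, which matched 8615 of 8838 members by symbol and overlap. A symbol with several loci (58 symbols, 191 loci) is named by its highest locus. Promoter sequences came from RefSeq (GRCm38.p6), and windows that overlap an annotated exon were not printed, a choice made after seeing them.

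Members and the 60 gene lists were chosen with earlier results of these data known, so lists are given by counts and medians with no set test. Genes were named by a rule: label and tissue checks, the 10 greatest positive and negative log2 ratios among protein-coding members, called members, in each list the 2 highest and the 2 with the greatest change, and the 5 smallest p values in each direction for the difference from control. A few further list members, and the non-members Scn10a, Scn11a, Opalin and Pirt, were named after their values were seen. Predicted genes and small RNAs were counted and not named. Some genes that the rule names are not reported here. Nothing in the tables separates the 3 libraries of a group, so p-values measure the model's interval and not the spread between animals. The alternatives are given in the closing section.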

Additional observations from a re-analysis of the deposited data

Results flagged for a closer look

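Dancr was the one nameable member whose step from P6 to P10 differed between SMA and control past the threshold, with a log2 difference of -0.86 ± 0.16 (adjusted p = 0.00079, z test on the authors' intervals with Benjamini-Hochberg adjustment). Its FPKM was 50.4 and 45.7 in SMA and 97.2 and 160 in control, and 384 (interval 0 to 1346) in SMA at P2. By expected counts the difference was -0.18 ± 0.98.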

How the results depend on the processing

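No paired analysis was possible because the deposited tables give 1 combined value per group, and for the same reason no replicate could be left out in turn. The 8 genes called between SMA at P6 and P10 became 2 by expected counts, 46 (21 higher, 25 lower) when the interval was read as that of 1 library, 27 by intervals that do not overlap and 1, Ucp1, among protein-coding genes alone. With a filter at FPKM 5, no filter, or centring on the median, 8 were called. Ucp1, included only through SMA at P6, was also called by the authors' expected counts of the same libraries (log2 -5.79 ± 1.20, adjusted p = 0.0145, z test). Read as 1 library, 6 of 7821 protein-coding members were called higher and 9 lower, beside 21 higher and 25 lower of 20087 genes tested. Among these members were Ermn, Mal, Gsn, Tmem88b and Fa2h higher and Dcn, Postn, Fos and Hba-a1 lower. The 4 genes whose step differed from control became 11 when read as 1 library, 0 by expected counts (z test, 16 at an unadjusted p below 0.05) and 4 at FPKM 5 or more. The 88 and 62 members at 1 or more and -1 or less became 45 and 30 by expected counts and 14 and 19 among protein-coding members, an alternative chosen after seeing the data. Other pseudocounts, centring and a filter at FPKM 10 gave 64 to 107 and 43 to 83. List medians changed sign for 0 lists at a pseudocount of 0.1, 3 at FPKM 1 or more, 6 after centring and 9 by expected counts, each with a main median within 0.10 of 0. Of 219 genes picked by the naming rule, 4 with a log2 ratio beyond 0.1 in size changed sign by expected counts: Homer2 (0.44 to -0.03), Dcx (0.14 to -0.02), Ccdc39 (0.12 to -0.05) and Dancr (-0.14 to 0.06). Dancr and 4 genes that kept their direction (Smn1, Fabp4, Retnla and Chil3) moved by more than their error. The cause of these shifts was not tested. In simulated data, with noise set to the full interval error, the test found 0% of 2-fold differences. The z values of the data had a robust SD of 0.280, so the simulated noise was wider than that of the data. Genes with narrow intervals were called at smaller differences, such as Dancr at -0.86. The part of interval width in the number of calls was not tested.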
